A study of Oryza sativa with 4 samples.

Results

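The genes described here are those of rice whose symbol or synonym names them as a lipoxygenase (LOX, CM-LOX), an allene oxide synthase (AOS), an allene oxide cyclase (AOC), an oxophytodienoate reductase (OPR), or a JAZ or other TIFY protein. The families were picked with earlier results of these data known, their members by name, and each was read from 1 probe set, that with the highest mean over the arrays. The names matched 39 genes, of which 35 had a named probe set, out of 17905 genes with one on the array. The 35 comprise 6 lipoxygenases, 4 AOS genes, 1 AOC gene, 7 OPR genes, 13 JAZ genes and 4 other TIFY genes.

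Jasmonates are lipid-derived hormones of wounding, defence and stress. Lipoxygenases oxygenate linolenic acid in the chloroplast, and AOS and AOC turn the product into oxophytodienoic acid. An OPR enzyme of the peroxisome, in rice OPR7, reduces it before its side chain is shortened and the acid is joined to isoleucine. JAZ proteins repress transcription factors of the MYC type until the hormone conjugate docks them to the COI1 receptor, which leads to their breakdown, and many JAZ genes are themselves switched on by jasmonate. JAZ numbers are used in more than 1 way for rice, so each JAZ gene is also given its TIFY name where it is first described.

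The arrays came from shoots of soil-grown rice seedlings (Oryza sativa) that were 18 days old when they were put completely under water in a greenhouse. The groups are M202 after 1 day, M202 after 6 days, M202(Sub1) after 1 day and M202(Sub1) after 6 days, with 1 Affymetrix array each. M202 is a japonica cultivar, and M202(Sub1) is a line of it carrying the introgressed submergence tolerance locus Sub1. All 4 groups were submerged, so no value here is a change from air. With 1 array per group no spread between plants or arrays is known, and the number of arrays limits the precision. Values are log2 signals. A gene counts as measured if it had 1 or more arrays at or over 5.51, the level floor, which held for 15426 genes and for 29 of the 35. Of these 29, 23 were over the floor on all 4 arrays and 6 on some only, so that the latter could pass through the array on which they were high. Of 6 markers of green tissue 5 lay between 10.97 and 14.32 on every array and RBCS1 was under the floor, and 3 of 6 root markers exceeded the floor on every array, at up to 8.13. In whole shoots, a lower signal from fewer cells of a type and from less RNA per cell cannot be told apart.

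**Figure D1:**
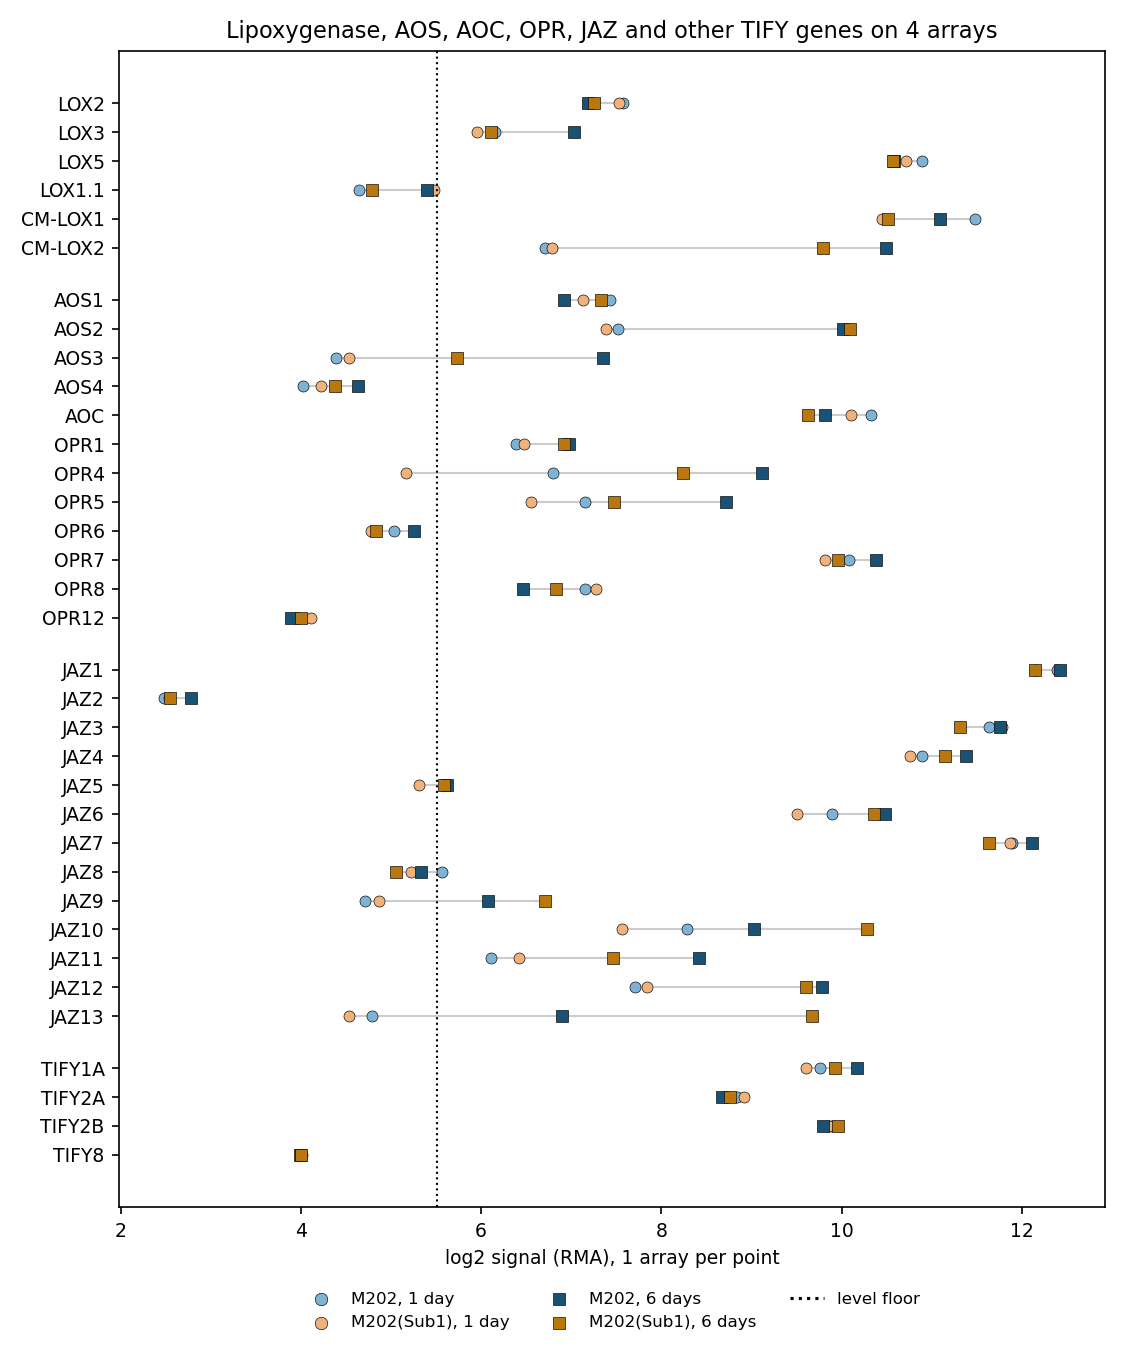
Log2 signal of each of the 35 genes (rows) on the 4 arrays (points: light for 1 day, dark for 6 days, blue for M202, orange for M202(Sub1)), with the level floor of 5.51 as a dotted line and a grey line joining the lowest and highest value. Rows with long grey lines, such as CM-LOX2, AOS2, OPR4 and JAZ13, have both dark points to the right of both light ones, and 6 genes lie left of the floor on every array.

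The first comparison asked how the genes differed between 6 days and 1 day under water. In both genotypes the differences of at least 2-fold ran 1 way. In M202, 9 of the 29 had a 6-day signal at least 2-fold higher and 0 a lower one, where 7.44% of all 15426 genes were higher and 8.62% lower. In M202(Sub1) it was again 9 and 0, where 6.25% of all genes were higher and 4.61% lower. 8 of the 29 were at least 2-fold higher in both genotypes, against 4.83% of all genes. AOS3, JAZ9 and JAZ13 are among these 8 but were under the floor on both 1-day arrays and entered only through their 6-day arrays, so they had to be higher. Without genes of that kind the counts were 6 of 26 in each genotype and 5 of 26 in both, where 6.76%, 5.70% and 4.39% of 15149 genes were. With values under the floor raised to it, they were 8 of 29 in each genotype and 6 of 29 in both, where 7.02%, 5.91% and 4.56% of all genes were. The median difference over the 29 was 0.41 in M202 and 0.28 in M202(Sub1), and that over all genes was -0.02 and 0.01. The 6 genes under the floor were less than 2-fold apart between times and between genotypes.

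The only test the design allows is an additive limma model of genotype plus time over the 4 arrays, whose 1 residual degree of freedom is the interaction. Its p-values weigh the mean time difference against the disagreement of the genotypes, not against the spread between plants. In it 7 of the 29 genes rose with time and 0 fell at a Benjamini-Hochberg adjusted p of 0.05, where 9.54% of all genes rose and 9.05% fell, and 15 of the 29 had an unadjusted p under 0.05 against 38.4% of all genes. Without genes under the floor on both 1-day arrays it was 6 of 26, where 9.31% of 15149 genes rose. Those that rose were CM-LOX2, AOS2, OPR4, OPR5, JAZ6, JAZ9 and JAZ12. The summed log2 level of the 6 green-tissue markers was also lower at 6 days, at 68.0 and 68.6 against 71.4 and 71.0 at 1 day. Of these markers RCABP69 and PORB fell, by 1.24 and 1.25 (adjusted p = 0.0145 and 0.0198, limma), RBCS, RCA and CAB2R did not pass the test, with 0.07 and 0.14 for RCA, and RBCS1 was under the floor. The sum of the 6 root markers lay between 33.4 and 34.5. The part of these in the time differences was not tested. Plant age and time under water cannot be told apart in this comparison.

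Among the lipoxygenases, which open the pathway, CM-LOX2 (LOC4345994, chromosome 8) carried the largest time difference. Its log2 signal at 1 day was 6.71 in M202 and 6.79 in M202(Sub1), and at 6 days 10.49 and 9.79. Both 6-day arrays were thus far above both 1-day arrays, by 13.8-fold in M202 and 8.02-fold in M202(Sub1). The mean time difference was 3.39 ± 0.24 (SE; adjusted p = 0.0145, limma), higher in both genotypes. Its 2 other probe sets were also higher at 6 days, by 2.68 and 2.78 for the first and by 1.82 and 1.34 for the second, and the mean of the 3 sets gave 2.76 in M202 and 2.37 in M202(Sub1). CM-LOX1 (LOC4345993), the lipoxygenase next to it on the chromosome with 0 genes between, was at 11.48 and 11.09 in M202 (1 and 6 days) and at 10.45 and 10.51 in M202(Sub1), differences of -0.39 and 0.07. LOX3 (LOC4333818), annotated as r9-LOX1 and so of the class that oxygenates carbon 9 and does not feed jasmonate, was at 6.15 and 7.03 in M202 (1 and 6 days) and at 5.96 and 6.11 in M202(Sub1). LOX3 was picked after its values were seen. LOX2 and LOX5 were less than 2-fold apart in every comparison.

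AOS2 (LOC4332121, chromosome 3), an allene oxide synthase, had nearly the same time difference in both genotypes. It stood at 7.52 in M202 and 7.39 in M202(Sub1) at 1 day and at 10.01 and 10.09 at 6 days. That is a 5.64-fold and a 6.52-fold difference, and AOS2 rose by 2.60 ± 0.14 (SE; adjusted p = 0.0129, limma). AOS1 (LOC4334233), the other well-known allene oxide synthase of rice, whose loss gives the precocious phenotype, was at 7.43 and 6.91 in M202 and at 7.13 and 7.33 in M202(Sub1), less than 2-fold apart. AOS1 was picked after its values were seen. AOS3 (LOC4328742, chromosome 2) was under the floor at 1 day in both genotypes, at 4.39 and 4.53, and over it at 6 days, at 7.35 in M202 and 5.73 in M202(Sub1). Its differences were 2.96 and 1.20, or 1.83 and 0.21 with its 1-day values raised to the floor, and it did not pass the test (adjusted p = 0.0672, limma), although it did after quantile normalization (adjusted p = 0.0464).

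AOC (LOC4333201), the allene oxide cyclase gene whose loss gives the cpm2 and hebiba mutants, was slightly lower at 6 days. It was picked after its values were seen. It stood at 10.33 in M202 and 10.10 in M202(Sub1) at 1 day and at 9.81 and 9.63 at 6 days, so both 6-day arrays were below both 1-day arrays. The differences of -0.52 and -0.47 did not pass the test (adjusted p = 0.0543, limma) but did after quantile normalization (adjusted p = 0.0354) and with a floor at the 70th percentile (adjusted p = 0.0464).

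Among the reductases, OPR4 and OPR5 rose, both of which lie in a row of OPR genes on chromosome 6. OPR4 (LOC4340486) was at 6.80 in M202 and 5.17 in M202(Sub1) at 1 day, the latter under the floor, and at 9.12 and 8.23 at 6 days. The differences were 2.32 in M202 and 3.07 in M202(Sub1), the latter 2.72 with the value under the floor raised to it, with a mean difference of 2.69 ± 0.25 (SE; adjusted p = 0.0177, limma). OPR5 (LOC4340485) was at 7.16 and 6.55 at 1 day and at 8.72 and 7.48 at 6 days, in the same order of genotypes. It rose by 1.24 ± 0.23 (SE; adjusted p = 0.0425, limma), higher in both genotypes, a call that was lost with no floor (adjusted p = 0.0527), without the variance trend (0.058) and with the mean of its 2 probe sets (0.0849). The other OPR5 probe set lay under the floor on every array. OPR7 (LOC4345762), the peroxisomal reductase known to act in jasmonate synthesis in rice, was at 10.08 and 10.38 in M202 and at 9.81 and 9.96 in M202(Sub1). Its differences of 0.30 and 0.15 did not pass the test. Whether OPR4 and OPR5 take part in jasmonate synthesis was not tested. OPR8 and OPR1 were less than 2-fold apart in every comparison.

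Of the 13 JAZ genes 12 reached the floor, and 11 of these lay above 0 between 6 days and 1 day in M202 and 9 in M202(Sub1), with medians of 0.53 and 0.61. Over all genes 48.4% and 51.2% lay above 0, with medians of -0.02 and 0.01. JAZ9 and JAZ13 are among these JAZ genes and entered only through their 6-day arrays. JAZ12 (TIFY11D, LOC4348533, chromosome 10) had a like difference in both genotypes. It was at 7.70 in M202 and 7.84 in M202(Sub1) at 1 day and at 9.78 and 9.61 at 6 days, and rose by 1.92 ± 0.15 (SE; adjusted p = 0.0151, limma). JAZ9 (TIFY11A, LOC4331832, chromosome 3) was under the floor at 1 day, at 4.72 and 4.86, and at 6.08 and 6.71 at 6 days. The model gave 1.61 ± 0.25 (SE; adjusted p = 0.0333, limma), but JAZ9 passed the floor only through the arrays on which it was high, and with its 1-day values raised to the floor the differences were 0.56 and 1.20. JAZ6 (TIFY10A, LOC4333065) was at 9.90 and 9.51 at 1 day and at 10.48 and 10.35 at 6 days, so its differences of 0.59 and 0.85 stayed under 2-fold. JAZ6 rose by 0.72 ± 0.12 (SE; adjusted p = 0.0381, limma), a call that was lost without the variance trend (adjusted p = 0.0662). Its only probe set is marked by name for possible cross-hybridisation.

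JAZ13, JAZ10 and JAZ11 also had their higher values at 6 days, but by amounts that differed between the genotypes, and none passed the test, which takes that disagreement as its error. JAZ13 (TIFY11E, LOC4348531, chromosome 10) was under the floor on both 1-day arrays, at 4.79 in M202 and 4.53 in M202(Sub1). At 6 days it reached 6.89 in M202 and 9.67 in M202(Sub1). With the 1-day values raised to the floor, it was at least 17.8-fold higher at 6 days in M202(Sub1) and at least 2.60-fold higher in M202. The adjusted p for the mean difference of 3.62 was 0.0576 (limma), with 0.0487 after centring the arrays and 0.0354 after quantile normalization. JAZ10 (TIFY11B, LOC4331834, chromosome 3) was at 8.28 and 9.03 in M202 and at 7.56 and 10.28 in M202(Sub1), a difference of 0.74 and 2.72. The JAZ10 set used is marked by name for possible cross-hybridisation, and its other set, not so marked, gave 0.36 and 1.06. JAZ11 (TIFY11C, LOC4331833) was at 6.11 and 8.42 in M202 and at 6.42 and 7.46 in M202(Sub1), a difference of 2.31 and 1.04. Its adjusted p was 0.0567 (limma), with 0.0497 after centring and 0.0392 after quantile normalization.

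**Figure D2:**
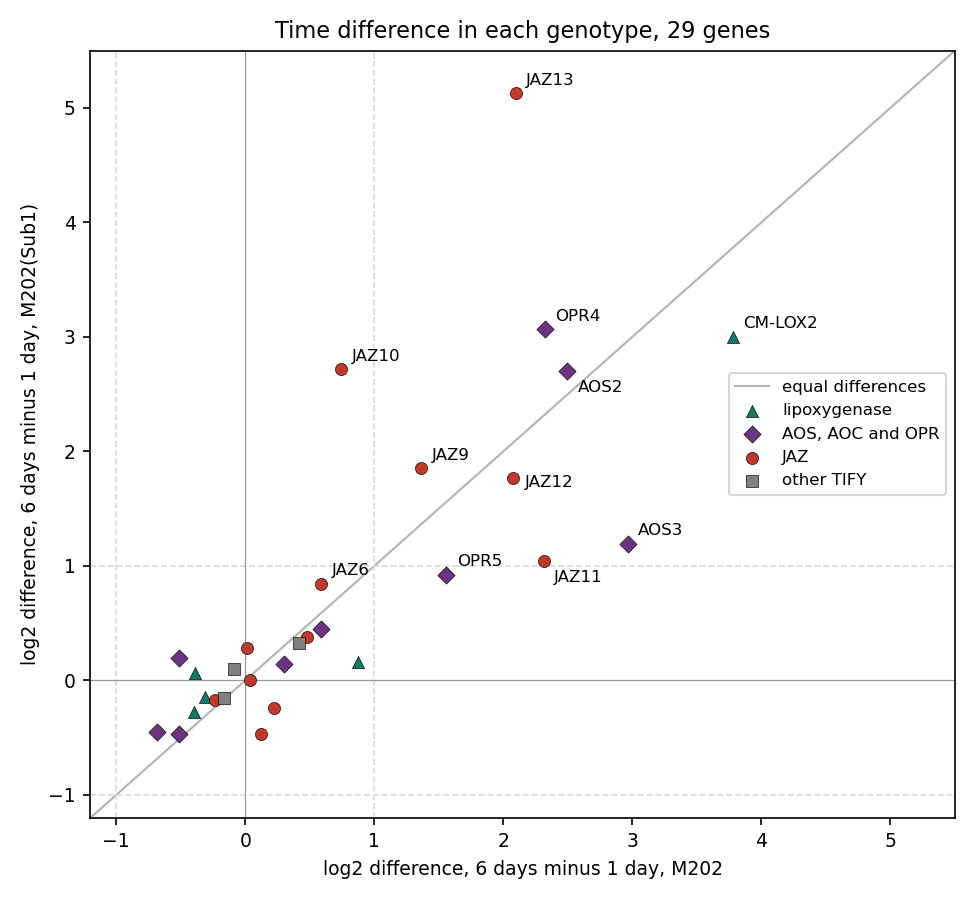
Log2 difference between 6 days and 1 day in M202 (horizontal) and in M202(Sub1) (vertical) for the 29 genes over the floor, 1 point per gene, coloured by role. The grey diagonal marks equal differences and dashed lines mark 2-fold. No point lies below -1 on either axis, AOS2 (2.50 and 2.70) and JAZ12 (2.07 and 1.77) lie near the diagonal, JAZ13 and JAZ10 lie above it, and AOS3 and JAZ11 below it.

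JAZ1 (TIFY3, also called EG2, which acts in spikelet development) was at 12.39 and 12.42 in M202 and at 12.14 and 12.15 in M202(Sub1), differences of 0.03 and 0.01. JAZ3 and JAZ7 were less than 2-fold apart in every comparison. JAZ4 (TIFY6B, LOC4347000), which was picked after its values were seen, depended on the probe set. The set used, whose name marks possible cross-hybridisation, gave 0.48 and 0.38. The other set, not so marked, was at 8.61 and 8.18 at 1 day and at 9.83 and 10.02 at 6 days, differences of 1.22 and 1.84. JAZ5 and JAZ8 stayed near the floor, and JAZ2 was under it on every array, at 2.48 to 2.78. The TIFY genes TIFY1A, TIFY2A and TIFY2B, which carry a GATA zinc finger and are not JAZ repressors, had time differences from -0.17 to 0.41.

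The genotypes were compared next, first at 1 day, where few of the genes were far apart. In M202(Sub1), 0 of the 29 genes exceeded M202 by 2-fold or more and 2 were lower, where 0.778% of all genes were higher and 1.01% lower. OPR4 was lower in M202(Sub1) by a log2 difference of -1.63, or -1.28 (2.44-fold) with its M202(Sub1) value, which was under the floor, raised to it. CM-LOX1, a chloroplast lipoxygenase, was at 10.45 against 11.48 in M202, a difference of -1.03 that became -0.99 after quantile normalization. The median over the 29 was -0.16, with 20 below 0, or 69.0%, against 52.5% of all genes. JAZ genes ranged from -0.72 (JAZ10) to 0.31 (JAZ11).

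After 6 days the greatest genotype differences were those of JAZ13 and AOS3, in opposite directions. In M202(Sub1), 2 of the 29 exceeded M202 by 2-fold or more, where 3.85% of all genes were, and 2 were lower, where 2.18% were. Of the 12 JAZ genes over the floor 9 lay below 0 at this time, with a median of -0.20. JAZ13 was 6.83-fold higher in M202(Sub1), a log2 difference of 2.77 that ranked 39 by size. JAZ10 was 2.38-fold higher (1.25). Its other probe set, whose name does not mark cross-hybridisation, gave 0.56, and over time 0.36 in M202 and 1.06 in M202(Sub1), so the sign was shared but not the 2-fold difference between genotypes. AOS3 was 3.07-fold lower in M202(Sub1) (-1.62) and OPR5 2.36-fold lower (-1.24, and -0.52 as the mean of its 2 probe sets). Among those just under 2-fold, JAZ11 was at -0.96, LOX3 at -0.91 and OPR4 at -0.89. CM-LOX2 was at -0.70 by the set used, and its other sets gave 0.42 and -0.06. AOS2 differed by 0.08 between genotypes at this time and JAZ12 by -0.17. The median over the 29 was -0.18, with 69.0% below 0 against 49.6% of all genes.

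In the additive limma model 0 of the 29 genes were called for genotype, where 1 gene, or 0.00648% of all, was, and 5 of the 29 had an unadjusted p under 0.05, against 10.8% of all genes. Those 5 were CM-LOX1, OPR4, OPR5, OPR7 and JAZ1, each lower in M202(Sub1) at both times. The model takes disagreement between the times as its error and so favours genes with a like difference at both. That each kept its sign at both times is thus no further result. The direction common to the 5 genes is not set by the model and was not tested. Of the 29, 14 lay below 0 at both times, or 48.3%, against 31.3% of all genes. The 1-day and 6-day genotype differences share no array, but each shares an array with the time differences above.

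**Figure D3:**
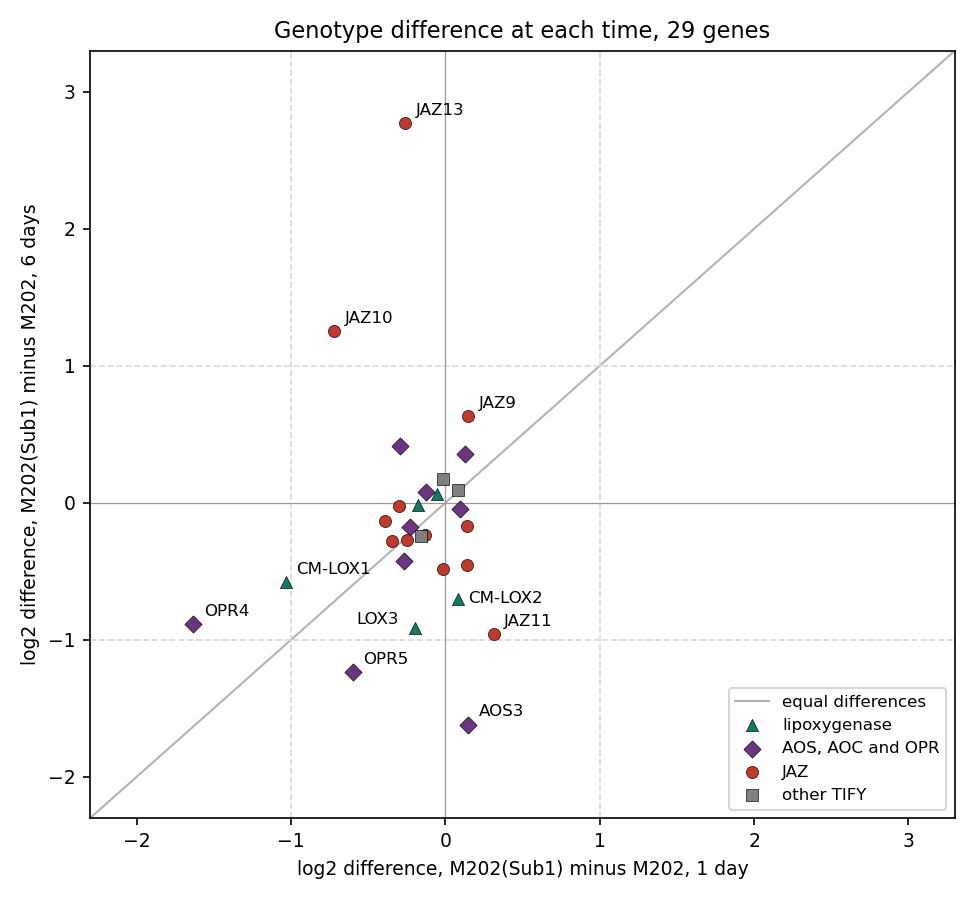
Log2 difference M202(Sub1) minus M202 at 1 day (horizontal) and at 6 days (vertical) for the 29 genes over the floor, 1 point per gene, coloured by role. The grey diagonal marks equal differences and dashed lines mark 2-fold. JAZ13 (-0.26 and 2.77) and JAZ10 (-0.72 and 1.25) stand out at the top, AOS3 (0.15 and -1.62) at the bottom, and OPR4 (-1.63 and -0.89), OPR5 (-0.60 and -1.24) and CM-LOX1 (-1.03 and -0.58) are below 0 at both times.

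The last comparison asked whether the 6-day minus 1-day difference was alike in the genotypes, for which no test was possible. For 2 of the 29 genes it was greater in M202(Sub1) by 2-fold or more and for 2 it was smaller, where 4.20% and 1.59% of all genes were. JAZ13 (3.03) and JAZ10 (1.97) had the greater difference in M202(Sub1), though the probe set of JAZ10 not marked for cross-hybridisation gave 0.70, under 2-fold. AOS3 (-1.77) and JAZ11 (-1.27) had the greater difference in M202. For the genes that rose in the additive model the value ranged from -0.78 (CM-LOX2) to 0.75 (OPR4). The median over the 29 was 0.05, against 0.02 over all genes.

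Several of these genes are neighbours, by the gene order of the RefSeq assembly ASM3414082v1, and neighbours did not always behave alike. JAZ9, JAZ11 and JAZ10 follow each other on chromosome 3 with 0 genes between. All 3 were higher at 6 days in both genotypes, but at 6 days JAZ9 (0.63) and JAZ10 (1.25) were higher in M202(Sub1), and JAZ11 between them was lower (-0.96). The JAZ10 set used is marked for possible cross-hybridisation, and its other set gave 0.56. JAZ9 passed the floor only through its 6-day arrays. JAZ13 and JAZ12 on chromosome 10 are separated by 2 genes. The genotypes were far apart at 6 days for JAZ13 (2.77) and close for JAZ12 (-0.17). AOS3 and AOS4 are adjacent on chromosome 2, and AOS4 stayed under the floor at 4.02 to 4.64. The OPR row on chromosome 6 runs OPR6, OPR5, OPR4 and OPR1, with an unmeasured OPR gene before OPR1 and another after it. The latter also carries the name OPR1. OPR5 and OPR4 were lower in M202(Sub1) at both times, and OPR6 was under the floor. OPR1 differed by 0.10 and -0.05, by a set marked for possible cross-hybridisation. No sequence was used, so a poorer match of the introgressed line to a probe set and a lower transcript level cannot be told apart.

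The other genes of the pathway were read from a list of 46 names. Of these 10 genes had a probe set, and in the limma model 4 rose and 1 fell with time and 0 were called for genotype, where 9.54%, 9.05% and 0.00648% of all genes were. JAMYB (LOC4351131), a MYB factor known to be induced by jasmonate, was at 7.88 in M202 and 7.25 in M202(Sub1) at 1 day and at 10.09 and 9.44 at 6 days. It rose by 2.21 in M202 and 2.19 in M202(Sub1) (SE of the mean difference 0.13, adjusted p = 0.0137, limma). BHLH148 (LOC4334060), a factor that binds JAZ proteins in rice, was at 6.60 and 8.98 in M202 and at 6.27 and 10.58 in M202(Sub1). It rose by 3.34 ± 0.52 (SE; adjusted p = 0.0331, limma). As for JAZ13 and JAZ10, its time difference was greater in M202(Sub1), at 4.31 against 2.37, and it was lower in that line at 1 day (-0.33) and higher at 6 days (1.61). MFP (LOC4328997), a multifunctional protein of the peroxisomal beta-oxidation that shortens the side chain, rose by 0.97 ± 0.09 (SE; adjusted p = 0.0175, limma), at 11.77 and 12.80 in M202 and 11.82 and 12.73 in M202(Sub1). TPR2 (LOC4327709), a co-repressor of the Topless type, was at 10.86 and 11.52 in M202 and at 10.69 and 11.34 in M202(Sub1). It rose by 0.65 ± 0.09 (SE; adjusted p = 0.029, limma), higher in both genotypes. The sets used for MFP and TPR2, the latter 1 of 2, are marked by name for possible cross-hybridisation. TPR1 (symbol TPR3), another listed repressor partner, did not pass the test, at 0.25 (adjusted p = 0.134, limma).

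JAR1 (LOC4339756), which joins jasmonic acid to isoleucine, fell by 0.64 ± 0.11 on the log2 scale (SE; adjusted p = 0.0362, limma). It was at 10.23 and 9.63 in M202 and at 10.47 and 9.79 in M202(Sub1). The receptor genes COI1A, COI1B and COI2 and the adaptor gene NINJA did not pass the test, and their largest genotype difference was 0.58 (COI1A at 1 day, 11.37 against 10.80). The 3 genes that matched the listed names DAD1, RSS3 and ASP1 only through a shared abbreviation were left out of these counts after their values were seen, and the largest of their differences was 0.52.

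**Figure D4:**
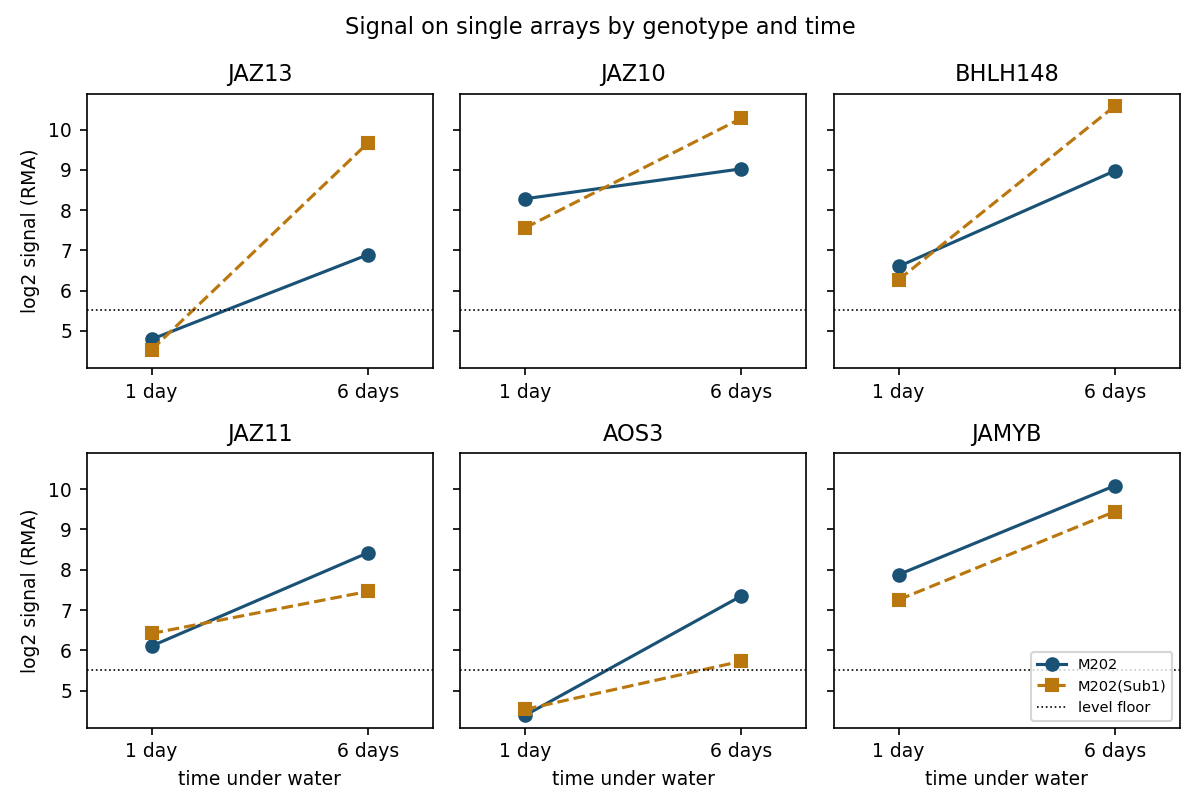
Log2 signal on single arrays (vertical) at 1 and 6 days under water (horizontal) in M202 (blue, solid) and M202(Sub1) (orange, dashed) for JAZ13, JAZ10, BHLH148, JAZ11, AOS3 and JAMYB, with the floor of 5.51 dotted. The lines cross in 5 panels and run side by side for JAMYB, whose differences over time were 2.21 and 2.19. For JAZ13 and AOS3 both 1-day points are under the floor, so that the crossing is uncertain. JAZ10 is drawn from its probe set marked for possible cross-hybridisation.

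Of the 29 genes, 17 were neither 2-fold apart in any of the 4 comparisons nor called (share of all genes not given). They include AOC, OPR7, JAZ1, JAZ3 and JAZ7, and their time differences spanned -0.68 to 0.88 (M202) and -0.47 to 0.45 (M202(Sub1)). Between genotypes they ranged from -0.34 to 0.14 at 1 day and from -0.91 to 0.42 at 6 days.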

How the data were processed

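The deposited table holds 1 log2 value per probe set and array, which the authors made with RMA, per the submitters' processing notes. RMA compresses differences near background and hides any shift in total RNA. The table has 57381 probe sets, 123 of them controls. Of 57258 rice probe sets, 22436 have 1 gene in the platform annotation, 95 have several and 34727 are unnamed here. All 17905 genes named matched the RefSeq table.

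The floor of 5.51 is the 50th percentile over all rice probe sets and arrays, and a gene passed through its highest array. Log2 differences were counted at 1 or more. Genes with all values printed were those 2-fold apart in any comparison or called, and the highest by mean of the lipoxygenases, of AOS, AOC and OPR together, and of JAZ and other TIFY genes together. Others with values are marked as picked later. The additive model was run in limma 3.58.1 under R 4.3.3 (two-sided, variance trend on, Benjamini-Hochberg adjusted p of 0.05). Python 3.11.15, numpy 2.4.6, pandas 2.3.3 and matplotlib 3.10.9 were used otherwise. Members and lists were chosen with earlier results of these data known. On simulated arrays for the time comparison (15426 genes, standard deviation 0.25, no interaction), limma called 99% of 200 genes changed by 1.5 and 0.046% of the others. That rate does not carry over to the real arrays, where the interaction is the residual. The alternatives tried were other floors, the mean of a gene's probe sets, leaving out sets marked for cross-hybridisation, centred or quantile-normalized arrays, other thresholds and no variance trend. Raising values to the floor, and leaving out genes under it on both 1-day arrays, were added after seeing the data.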

Additional observations from a re-analysis of the deposited data

Results flagged for a closer look

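For 4 of the genes the genotype difference (M202(Sub1) minus M202, log2) had opposite signs at 1 day and 6 days and moved by at least 2-fold between them. This difference between times was not tested, since each group has 1 array. Whatever the signs, 2 of the 29 moved up and 2 down by at least 2-fold, where 4.20% and 1.59% of all genes did. JAZ13 was at -0.26 and 2.77, and JAZ10 at -0.72 and 1.25. The JAZ10 probe set not marked for cross-hybridisation was at -0.14 and 0.56, less than 2-fold apart. AOS3 was at 0.15 and -1.62, and JAZ11 at 0.31 and -0.96. JAZ13 and AOS3 were under the level floor on both 1-day arrays. With those values raised to the floor, their 1-day difference was 0, so its sign is uncertain.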

How the results depend on the processing

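Under the alternatives 78 recomputed counts stayed within 1.5 times the value reported and 12 moved, and no named difference of at least 2-fold changed sign. At 1 day the count of 2 lower genes became 1 after quantile normalization (CM-LOX1 at -0.99) and 4 at 1.5-fold. At 6 days the 2 higher genes became 1 with the mean of all probe sets and 1 without possibly cross-hybridising sets. The 2 lower genes became 1 with a floor at the 70th percentile, 1 with the mean of all probe sets and 6 at 1.5-fold. At 1.5-fold 1 gene was lower with time in M202. The 7 genes that rose became 13 at an adjusted p of 0.1. The count that fell, 0 as reported, became 1 at an adjusted p of 0.1. It became 1 of 21 with a floor at the 70th percentile, where 1459 of 12695 genes fell. After quantile normalization it became 1 of 29, where 1889 of 15415 genes fell. No share of all genes is given beside the recomputed counts between genotypes, nor beside the counts at 1.5-fold and at an adjusted p of 0.1. The causes of the moves were not tested, other than that a higher floor leaves 21 of the genes and that looser thresholds admit more. AOS2, CM-LOX2, OPR4 and JAZ12 kept their limma call in each of 7 refits and JAZ9 in each of 6, with adjusted p from 0.00535 to 0.0411. JAZ9 was not among the genes left by the floor at the 70th percentile. It passed the reported floor only through its 6-day arrays, so that its kept call is no further support. Over all genes, 2868 were called for time as reported, between 1428 (no variance trend) and 3535 (quantile normalization) otherwise, and 1 was called for genotype, between 0 and 11 otherwise. No paired analysis was possible because each group has 1 array, and for the same reason no array could be left out. Genes under the floor at 1 day, JAZ13, AOS3, JAZ9 and, in M202(Sub1), OPR4, have differences whose size is uncertain.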
